A study of Mus musculus with 123 samples.

Results

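Later epiblast and formative regulators were followed here across preimplantation development and in the absence of Oct4 or Sox2. The set comprised the rows of the UMI table with the symbols Otx2, Pou3f1, Fgf5, Sall1, Sall4, Lin28a and Lin28b, which gave 7 of the 29022 genes in the table. The members were found by these symbols alone. Of these, 6 were detected widely enough to be fitted, and Fgf5 is given as sums of unique molecular identifiers (UMIs), the molecular tags that let PCR copies be counted once.

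Single-embryo RNA-seq had been carried out to ask what Oct4 (encoded by Pou5f1) and Sox2 do while the inner cell mass (ICM) forms and matures. Each library held 1 embryo or 1 isolated ICM of B6C3F1 background, and the libraries fell into 16 groups. Embryos of the Oct4 line were either KO, with the floxed maternal Pou5f1 allele removed by Zp3-Cre in the oocyte and an mKO2-tagged null allele from the father, or Ctrl, with the maternal allele removed but an intact paternal allele. Embryos of the Sox2 line were built in the same way with a floxed maternal Sox2 allele and an EGFP-tagged null allele. Ctrl embryos thus also lacked the maternal gene, and MWT embryos came from mothers in which the gene was intact. Each line had 8 Ctrl and 8 KO embryos at each of 3 stages, the morula (E2.75), the early ICM (E3.75) and the late ICM (E4.5). From MWT mothers of the Oct4 line came 7 morulae, 5 early and 8 late ICMs, and from those of the Sox2 line 7 early ICMs. Early and late ICMs had been cultured with the MEK inhibitor PD0325901 and stripped of trophectoderm by immunosurgery, whereas morulae were whole and were not cultured this way, so stage, culture and isolation cannot be told apart. The stage of the 13 Oct4 MWT ICMs was taken from the sample titles, and the source names of the same samples give an earlier stage. Embryos came from superovulated females and were assigned to KO or Ctrl by fluorescence. Which embryos shared a litter or a day of collection is not given, so the p-values measure the spread between embryos of a group.

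The epiblast leaves naive pluripotency around implantation and passes through a formative state before it responds to the signals of gastrulation. Otx2 is a homeodomain factor that works with Oct4 on the enhancers opened in this transition, Pou3f1 (also known as Oct6) is a POU factor related to Oct4, and Fgf5 encodes a fibroblast growth factor that is widely used to mark the postimplantation epiblast. Sall4 and Sall1 are zinc finger factors that bind the NuRD chromatin remodelling complex, and Sall4 is part of the pluripotency network of the ICM itself. Lin28a and Lin28b encode RNA-binding proteins that block the maturation of the let-7 miRNAs, and the let-7 miRNAs in turn repress both Lin28 mRNAs.

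The 7 genes lie on 6 chromosomes, and coordinates are those of the deposited table (mm10). Otx2 (ENSMUSG00000021848) spans chr14:48657677-48673819 on the minus strand. Pou3f1 (ENSMUSG00000090125) spans chr4:124656807-124660655 on the plus strand. Fgf5 (ENSMUSG00000029337) spans chr5:98254184-98277030 on the plus strand. Sall1 (ENSMUSG00000031665) spans chr8:89027235-89044162 and Sall4 (ENSMUSG00000027547) spans chr2:168748332-168767943, both on the minus strand. Lin28a (ENSMUSG00000050966) spans chr4:134003330-134018841 and Lin28b (ENSMUSG00000063804) spans chr10:45376620-45486395, also both on the minus strand. Otx2, Pou3f1, Sall4 and Lin28a overlap noncoding genes, and it is not stated whether reads were counted by strand. Few UMIs were assigned to the overlapping genes. Over all embryos Otx2os1 had 16 UMIs, Gm13061 (at Lin28a) had 9, Gm14261 (at Sall4) had 8 and Gm49154 (at Otx2) had 1. The members had 1313 UMIs for Otx2, 1914 for Lin28a and 21243 for Sall4. With the strand setting unknown, these counts do not show how far the overlaps affected the members. Gm2164, which overlaps Pou3f1, was not analysed here.

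The let-7 sequences are shown because the 3′ UTRs of Lin28a, Lin28b and Sall4 held matches to their seed. Mature let-7 miRNAs start with a shared seed (bases 2 to 8, in capitals, RefSeq, GRCm38.p6), which 11 mature mouse miRNAs carried.
mmu-let-7a-5p: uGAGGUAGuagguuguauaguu
mmu-let-7d-5p: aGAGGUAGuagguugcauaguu
mmu-let-7g-5p: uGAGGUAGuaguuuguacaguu
mmu-miR-98-5p: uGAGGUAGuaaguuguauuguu

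The reverse complement of the seed, CTACCTC, was searched on the sense strand of the longest annotated 3′ UTR of each gene (GENCODE vM21, GRCm38). Lin28b held 4 matches in 4445 bases, Lin28a held 2 in 2775 bases and Sall4 held 1 in 1697 bases. Otx2, Pou3f1, Fgf5 and Sall1 held none in UTRs of 1029, 1599, 1478 and 1143 bases, and 9.02% of the 21045 genes with a 3′ UTR held at least 1. The sites are given below with the match in capitals, each with 12 bases before and 6 after it, read on the minus strand on which the 3 genes lie.
Lin28a, chr4:134005184-134005208: cagcctgttgaaCTACCTCattttt
Lin28a, chr4:134004546-134004570: atcgccacaaacCTACCTCactgtg
Lin28b, chr10:45381017-45381041: cgggcgggaagtCTACCTCatgcaa
Lin28b, chr10:45378643-45378667: acttgttagtaaCTACCTCtgagtt
Lin28b, chr10:45378471-45378495: tacagcacatggCTACCTCccagct
Lin28b, chr10:45377055-45377079: tgatggcaccgaCTACCTCttcaat
Sall4, chr2:168748935-168748959: gctttaatttatCTACCTCaattat

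The promoters of both Lin28 paralogs are shown because both genes fell in Ctrl embryos of each line. RefSeq promoter windows (from upstream of the start to shortly after it, GRCm38.p6) were at hand for Otx2 (4), Fgf5 (1), Sall1 (3), Lin28a (1) and Lin28b (1). They were searched on both strands for the octamer ATGCNAAT, which contains the ATGCAAAT bound by POU factors, and for the SOX core CATTGT. The octamer with 1 free base occurred in 3.15% of 32851 promoters, the exact octamer in 1.74% and the SOX core in 12.6%. In the 10 promoters of these genes there was 1 SOX core, in Lin28a 96 bases before the start (capitals below), and 1 octamer with a free base, ATGCTAAT in the third Sall1 promoter. The Lin28b start of RefSeq lies within the span that the deposited table gives for the gene.
Lin28a promoter, chr4:134018767-134019066, minus strand: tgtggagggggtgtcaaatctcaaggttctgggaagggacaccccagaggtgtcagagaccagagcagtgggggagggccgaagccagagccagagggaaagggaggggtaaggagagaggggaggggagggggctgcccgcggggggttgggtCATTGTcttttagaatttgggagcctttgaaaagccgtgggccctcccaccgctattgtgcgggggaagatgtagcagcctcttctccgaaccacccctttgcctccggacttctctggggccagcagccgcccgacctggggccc
Lin28b promoter, chr10:45470152-45470451, minus strand: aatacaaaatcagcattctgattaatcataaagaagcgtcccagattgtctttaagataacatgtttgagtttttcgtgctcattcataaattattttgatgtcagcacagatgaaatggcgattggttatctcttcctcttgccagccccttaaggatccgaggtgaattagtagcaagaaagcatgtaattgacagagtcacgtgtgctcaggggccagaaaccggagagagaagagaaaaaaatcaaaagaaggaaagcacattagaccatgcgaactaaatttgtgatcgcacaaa

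Total UMIs per embryo ranged from 525755 to 1344035, so a level of 1 CPM, the UMIs of a gene scaled to a common total per library, corresponds to about 1 UMI in an embryo. The targeted genes followed the labels: Pou5f1 had a median of 0.520 CPM or less in the 3 Oct4-KO groups against 23.1 to 84.6 CPM in the matching Ctrl groups. In the Sox2-KO groups the median of Sox2 was 1.81, 24.3 and 13.7 CPM in morulae, early ICMs and late ICMs, against 12.4, 94.0 and 169 CPM in Ctrl embryos. Of 12 epiblast and naive pluripotency markers, all had UMIs in 12 of the 16 groups, and the summed level per embryo was 2930 to 4480 CPM in Oct4 Ctrl late ICMs but 688 to 1750 CPM in Oct4-KO late ICMs. The summed level of 11 trophectoderm markers was 258 to 1100 and 1500 to 3180 CPM in the same groups, and that of 11 primitive endoderm markers was 315 to 1680 and 972 to 1720 CPM. In libraries of whole embryos or ICMs, fewer cells that express a gene and less RNA per cell cannot be told apart.

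Levels of the 7 genes in each embryo set the frame for the comparisons. Differences were fitted with edgeR over all genes that passed the detection filter, and a gene was called when its Benjamini-Hochberg adjusted p was under 0.05 and its log2 fold change was at least 1 in size.

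**Figure D1:**
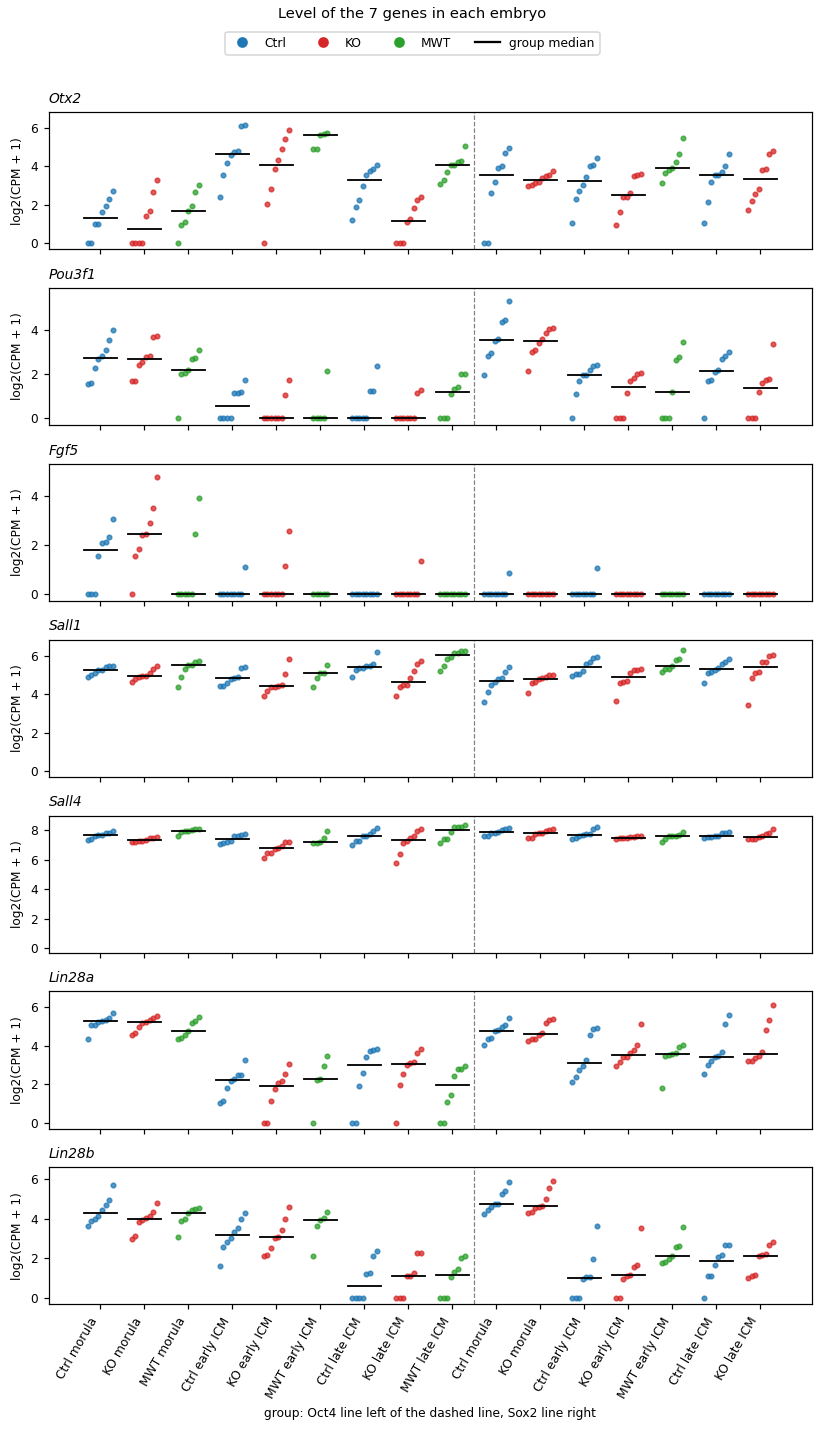
Level of each of the 7 genes on a log2(CPM + 1) scale (vertical axis) in single embryos of the 16 groups (horizontal axis), with points for embryos and bars for group medians. Otx2 in Ctrl embryos of the Oct4 line had medians of 1.58, 24.2 and 8.95 CPM at the 3 stages, Pou3f1, Lin28a and Lin28b were highest in morulae, and Fgf5 was almost limited to morulae of the Oct4 line.

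Otx2 rose sharply from morula to early ICM in the Oct4 line and then fell. In Oct4 Ctrl embryos the lowest, median and highest levels were 0, 1.58 and 5.60 CPM in morulae, 4.26, 24.2 and 69.3 CPM in early ICMs and 1.34, 8.95 and 16.1 CPM in late ICMs. The rise was called (log2 fold change 3.70 ± 0.64 SE, edgeR adjusted p = 8.60e-07), and so was the fall (-1.77 ± 0.56, adjusted p = 0.00888). In both steps the groups overlapped, since the lowest early ICM was below the highest morula and the early and late ICMs shared part of their range. Oct4-KO embryos took the same course, with medians of 0.863, 16.2 and 1.28 CPM, a rise of 3.17 ± 0.65 (adjusted p = 2.89e-05) and a fall of -3.51 ± 0.72 (adjusted p = 4.76e-05), both on the log2 scale. Oct4 MWT embryos did so as well: their 5 early ICMs had 28.5, 29.0, 49.0, 50.8 and 53.2 CPM, all above the highest MWT morula (7.12 CPM). The log2 fold change of this rise was 3.72 ± 0.64 (adjusted p = 6.07e-07), and that of the fall to late ICMs was -1.40 ± 0.52 (adjusted p = 0.0341). The fall in MWT embryos lost its call in DESeq2 (adjusted p = 0.0835) and on leaving out MWT early ICM 1, 7 or 9.

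Embryos of the Sox2 line had no called step of Otx2. Sox2 Ctrl embryos had lowest, median and highest levels of 0, 11.1 and 30.6 CPM in morulae, 1.11, 8.53 and 20.9 CPM in early ICMs and 1.08, 10.7 and 23.8 CPM in late ICMs, so the 3 ranges nearly coincided. Neither step was called in Sox2 Ctrl embryos (log2 fold changes -0.32 ± 0.54 and 0.07 ± 0.56) or in Sox2-KO embryos (-0.58 ± 0.60 and 0.97 ± 0.60). The step from morula to early ICM differed between Sox2 Ctrl and Oct4 Ctrl embryos (-4.02 ± 0.85, adjusted p = 1.10e-04), whereas the difference in the step from early to late ICM was not called (1.85 ± 0.80, adjusted p = 0.115). Between the Ctrl embryos of the lines, Otx2 was higher in the Sox2 line as morulae (2.47 ± 0.68, adjusted p = 0.00440) and lower as early ICMs (-1.56 ± 0.52, adjusted p = 0.0182). The lines' late ICMs differed by 0.29 ± 0.60 (adjusted p = 0.858). The difference at the early ICM lost its call without Oct4 Ctrl early ICM 4 or 6, with a highest adjusted p of 0.0715. The comparison of the lines was added after the values had been seen. The lines differ in parents, transgene and handling, and these cannot be told apart.

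In the KO comparisons, Otx2 in late ICMs of the Oct4 line was the only call among the 7 genes. The 8 Ctrl late ICMs held 1.34, 2.8, 3.80, 6.96, 10.9, 12.7, 13.4 and 16.1 CPM, a total of 45 UMIs, and the 8 Oct4-KO late ICMs held 0, 0, 0, 1.16, 1.40, 2.53, 3.86 and 4.35 CPM, a total of 10 UMIs. The groups overlapped below 5 CPM, and 5 of the 8 KO embryos had a UMI against 8 of 8 Ctrl embryos. The log2 fold change was -2.15 ± 0.82 (adjusted p = 0.0347), and the ratio of summed UMIs was 19.8% (95% exact Poisson interval 8.89% to 39.8%, which covers counting error only). Leaving out single embryos kept the call in 7 of 16 refits, with log2 fold changes of -2.46 to -1.94 and a highest adjusted p of 0.0804. The call was lost on leaving out Ctrl embryo 1-3, 1-4, 2-4 or 2-9 or KO embryo 1-2, 1-5, 1-7, 2-5 or 2-6. It was also lost with limma on rlog values, which gave a smaller difference in the same direction. The late ICMs carry a leading 1 or 2 in their numbers, and within each of these label sets the log2 fold change was -1.84 (adjusted p = 0.107) and -2.58 (adjusted p = 0.0787). The direction was the same against the 8 MWT late ICMs, which held 7.40 to 32.8 CPM with a median of 15.8 CPM (-3.01, adjusted p = 4.02e-04). The source names of these MWT embryos give an earlier stage, and Otx2 was higher in early than in late ICMs of the line. MWT embryos also differ from KO embryos in the maternal gene, and these differences cannot be told apart. The sums of epiblast and trophectoderm markers moved in the same comparison, as given above. Of 9 tested primitive endoderm markers, Sox17 (from 78.2 in Ctrl to 0.725 CPM), Gata4 (16.3 to 1.22 CPM), Pdgfra (17.2 to 2.94 CPM) and Lama1 (115 to 41.3 CPM) were called lower, and Gata6 (182 to 402 CPM) and Dab2 (155 to 699 CPM) higher, with a list median of -1.40. The part of these markers in the difference of Otx2 was not tested.

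Loss of Oct4 did not remove Otx2 from early ICMs, and no call was made for Otx2 on loss of Sox2. The 8 Oct4-KO early ICMs ranged from 0 to 59.5 CPM against 4.26 to 69.3 CPM in Ctrl embryos, and the log2 fold change of -0.41 ± 0.49 had a 95% interval of -1.37 to 0.54. The difference between the KO effects in late and early ICMs of the Oct4 line was -1.74 ± 0.96 (adjusted p = 0.337). In Sox2-KO embryos the log2 fold changes were -0.37 ± 0.54 in morulae, -0.63 ± 0.60 in early ICMs and 0.27 ± 0.56 in late ICMs. The Oct4-KO effect in late ICMs minus the Sox2-KO effect was -2.42 ± 1.00 (adjusted p = 0.120), so the 2 knockouts were not shown to differ. With the 7 Sox2 MWT early ICMs (7.77 to 43.3 CPM) in place of Ctrl, Sox2-KO early ICMs were lower (-1.55, adjusted p = 0.0381). These MWT embryos differ from KO embryos in the maternal gene as well, and 2.58% of all genes were called between them and Ctrl early ICMs. Loss of the maternal and of the paternal gene cannot be told apart in this comparison.

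Pou3f1 was found mainly in morulae and fell at the early ICM in every series of embryos. In Oct4 Ctrl embryos the lowest, median and highest levels were 1.94, 5.71 and 14.6 CPM in morulae, 0, 0.593 and 2.30 CPM in early ICMs and 0, 0 and 4.18 CPM in late ICMs, with 50, 5 and 5 UMIs in all. The fall had a log2 fold change of -3.0 ± 0.64 (adjusted p = 5.11e-05), and it was -3.56 ± 0.69 in Oct4-KO and -2.54 ± 0.85 in Oct4 MWT embryos. Few UMIs stood behind the last 2: Oct4-KO early ICM 5 held 2 of the 3 UMIs of its group (-4.46 without it), and MWT early ICM 8 held all 3 of its group (-4.93 without it, with no UMI left in the group). Sox2 Ctrl embryos had 2.91, 10.6 and 38 CPM in morulae, 0, 2.88 and 4.36 CPM in early ICMs and 0, 3.4 and 7.07 CPM in late ICMs, and their fall was -2.41 ± 0.48 (adjusted p = 1.36e-05). In Sox2-KO embryos the fall was -2.69 ± 0.54 (adjusted p = 1.31e-05), and the morulae (3.43 to 15.6 CPM) lay above all early ICMs (0 to 3.12 CPM). No change was called from early to late ICM, where log2 fold changes ran from -0.21 ± 1.08 in Oct4-KO to 0.89 ± 1.00 in Oct4 MWT embryos.

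No KO comparison called Pou3f1. KO embryos had 51 UMIs against 50 in Ctrl morulae of the Oct4 line, a ratio of 99.5% (66.0% to 150%). In Sox2-KO morulae there were 88 UMIs against 125, a ratio of 72.8% (54.8% to 96.4%), whose interval covers counting error only, and the fitted log2 fold change of -0.44 ± 0.41 did not pass (adjusted p = 1.00). At 2 to 26 UMIs per group, changes in ICMs were not detectable at this depth unless they were large: the interval of the log2 fold change was -3.14 to 0.92 in Oct4-KO late ICMs and -1.73 to 0.56 in Sox2-KO late ICMs. Morulae of the Sox2 line had more Pou3f1 than those of the Oct4 line (Ctrl embryos, 1.12 ± 0.43, adjusted p = 0.0492), a call kept by 2 of 8 alternative settings.

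Fgf5 had 104 UMIs in 20 embryos, and 95 of these UMIs came from morulae of the Oct4 line. The 8 Oct4 Ctrl morulae held 0, 0, 0, 2, 3, 3, 4 and 7 UMIs, the 8 Oct4-KO morulae held 0, 2, 3, 4, 4, 6, 10 and 31 UMIs, and the 7 Oct4 MWT morulae held 0 in 5 embryos and 4 and 12 in the others. In the 16 morulae of the Sox2 line there was 1 UMI. The Oct4-line morulae thus exceeded the Sox2-line morulae in summed UMIs (95 against 1), and the lower end of the exact Poisson interval of their ratio was 1270%. Without a detection filter, edgeR called Fgf5 lower in Sox2 than in Oct4 Ctrl morulae (-3.40 ± 0.87, adjusted p = 0.00396 over 27169 genes), with 1 UMI in the lower group.

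**Figure D2:**
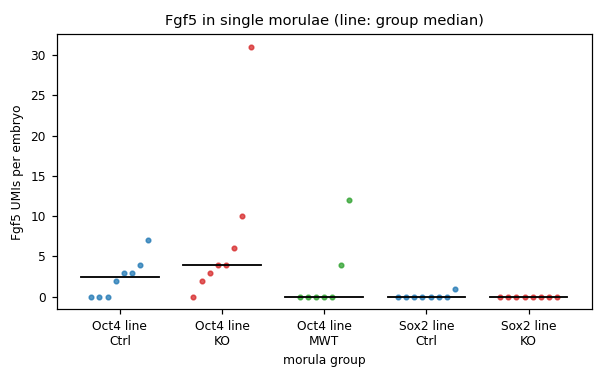
UMIs of Fgf5 (vertical axis) in each morula of the 5 morula groups (horizontal axis), with points for embryos and bars for group medians. Most Oct4-KO morulae held 2 to 10 UMIs and 1 held 31, whereas a single embryo among the 16 of the Sox2 line held a UMI.

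In Oct4-KO morulae Fgf5 had 60 UMIs against 19 in Ctrl morulae, a ratio of 308% (181% to 546%), and 7 of 8 KO embryos against 5 of 8 Ctrl embryos had a UMI. More than 50% of the KO sum came from KO morula 12, and without it the ratio was 174% (94.2% to 328%, 29 against 19 UMIs). The unfiltered edgeR fit did not call the difference (1.55 ± 0.57, adjusted p = 0.313). In the ICMs of the Oct4 line 7 UMIs remained, 4.76% (1.86% to 10.2%) of the level per UMI sequenced in the morulae of the line, and 4 of these 7 came from a single Oct4-KO early ICM. The ICMs of the Sox2 line held 1 UMI among all embryos.

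Sall1 and Sall4 were present in every embryo of the series, at 9.90 to 78.9 CPM for Sall1 and 53.6 to 326 CPM for Sall4. Sall4 group means lay between 108 and 244 CPM and Sall1 group means between 25.2 and 61.1 CPM, and no comparison of KO with Ctrl embryos, of MWT with Ctrl embryos or of neighbouring stages called either gene. The nearest to a call among the KO comparisons was Sall4 in Oct4-KO early ICMs, with a lowest, median and highest level of 69.8, 108 and 144 CPM against 134, 172 and 216 CPM in Ctrl embryos. Its log2 fold change was -0.59 ± 0.15 (adjusted p = 0.00247), below the fold set for a call, and the groups overlapped only between 134 and 144 CPM. In these embryos the trophectoderm markers summed to 855 to 1470 CPM against 410 to 1370 CPM in Ctrl. The epiblast markers summed to 1990 to 2630 against 2970 to 4410 CPM, and the primitive endoderm markers to 915 to 1500 against 640 to 1020 CPM. Of 9 tested primitive endoderm markers, Col4a2 and Dab2 were called higher and Sox17 and Pdgfra lower. The part of these markers in the difference of Sall4 was not tested. In morulae Sall4 had a lowest, median and highest level of 146, 158 and 184 CPM in Oct4-KO against 162, 206 and 240 CPM in Ctrl embryos, and all 8 KO morulae lay below the Ctrl median. The log2 fold change was -0.27 ± 0.15 (adjusted p = 0.483), with a range of -0.58 to -0.26 and a lowest adjusted p of 0.0176 over the alternatives. These alternatives included MWT morulae (194 to 271 CPM) in place of Ctrl, which differ from KO morulae in the maternal gene as well. In late ICMs Sall4 ranged from 53.6 to 271 CPM in Oct4-KO and from 127 to 284 CPM in Ctrl embryos (log2 fold change -0.15 ± 0.15). KO embryos numbered with a leading 1 held 53.6, 83.8, 139 and 152 CPM, and those with a leading 2 held 176, 192, 246 and 271 CPM. Ctrl embryos held 127 to 242 CPM with a leading 1 and 156 to 284 CPM with a leading 2. What the leading number stands for is not given in the labels. The KO effect in late minus early ICMs was 0.44 ± 0.22 (adjusted p = 0.262).

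Loss of Sox2 left Sall4 within -0.48 to 0.37 on the log2 scale in each of the 3 stages by the 95% intervals, with estimates of -0.05, -0.19 and 0.08. Sall1 had log2 fold changes of -0.15 ± 0.23, -0.11 ± 0.24 and -0.45 ± 0.24 at the 3 stages in Oct4-KO embryos, and of 0.01 ± 0.24, -0.51 ± 0.23 and 0.17 ± 0.23 in Sox2-KO embryos. The most negative of the latter, in Sox2-KO early ICMs, came from 28.8 ± 9.51 CPM (SD, n = 8) against 43.1 ± 12 CPM (SD, n = 8) in Ctrl embryos (edgeR adjusted p = 0.181). From early to late ICM Sall1 gained 0.66 ± 0.24 in Oct4 Ctrl (adjusted p = 0.0249) and 0.93 ± 0.26 in Oct4 MWT embryos (adjusted p = 0.00384), and Sall4 gained 0.68 ± 0.16 in Oct4-KO embryos (adjusted p = 2.41e-04) and 0.50 ± 0.18 in Oct4 MWT embryos (adjusted p = 0.0249), all under the fold set for a call. From morula to early ICM Sall4 had log2 fold changes of -0.66 ± 0.15 in Oct4-KO (adjusted p = 2.04e-04) and -0.68 ± 0.18 in Oct4 MWT embryos (adjusted p = 0.00124), also under it. From morula to early ICM the log2 fold change of Sall1 was -0.47 ± 0.23 in Oct4 Ctrl and 0.67 ± 0.23 in Sox2 Ctrl embryos, and the difference of 1.14 ± 0.33 was called (adjusted p = 0.00493).

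Lin28a was a morula gene in the Oct4 line and fell steeply on the way to the ICM. Oct4 Ctrl morulae had a lowest, median and highest level of 19.1, 37.3 and 50.0 CPM, early ICMs 1.07, 3.69 and 8.51 CPM and late ICMs 0, 7.29 and 13.4 CPM. Morulae and early ICMs did not overlap, and the log2 fold change was -3.36 ± 0.46 (adjusted p = 1.80e-09). Oct4-KO embryos (-3.68 ± 0.49, adjusted p = 6.10e-10) and Oct4 MWT embryos (-2.68 ± 0.52, adjusted p = 1.04e-05) fell likewise, also without overlap between the stages. From early to late ICM the log2 fold change was 0.97 ± 0.58 in Ctrl and 1.34 ± 0.61 in Oct4-KO embryos, and neither was called (adjusted p = 0.204 and 0.0814), while DESeq2 called the latter (1.41, adjusted p = 0.0306).

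In the Sox2 line the fall of Lin28a was smaller and the ICMs were heterogeneous. Sox2 Ctrl embryos had 15.1, 26.1 and 42.8 CPM in morulae, 3.32, 7.70 and 29.4 CPM in early ICMs and 4.71, 9.73 and 47.3 CPM in late ICMs. Of the 8 early ICMs, 3 had 22.1, 28.3 and 29.4 CPM and the others 3.32 to 8.62 CPM, and of the 8 late ICMs, 2 had 34.4 and 47.3 CPM and the others 4.71 to 11.9 CPM. A similar spread was seen in Sox2-KO late ICMs, from 8.08 to 68.6 CPM. The fall to the early ICM was -1.04 ± 0.39 in Sox2 Ctrl (adjusted p = 0.0181) and -1.06 ± 0.39 in Sox2-KO embryos (adjusted p = 0.0170). Both lie at the fold set for a call, and leaving out single early ICMs kept the call in 3 of 8 refits in each, losing it without Ctrl embryo 2, 5, 7, 10 or 11 and without KO embryo 2, 5, 11, 17 or 21. The fall differed between the lines by 2.32 ± 0.62 in Ctrl embryos (adjusted p = 0.00251), and Sox2 Ctrl early ICMs had more Lin28a than Oct4 Ctrl early ICMs (1.85 ± 0.51, adjusted p = 0.00357), a call lost with limma on rlog values (0.89).

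Lin28b fell in both lines, over both steps in Oct4 Ctrl embryos and at the first step alone in Sox2 Ctrl embryos, while the other two series of the Oct4 line had a call at the second step alone. Oct4 Ctrl embryos had a lowest, median and highest level of 11.3, 18.5 and 49.8 CPM in morulae, 2.13, 8.02 and 18.1 CPM in early ICMs and 0, 0.684 and 4.18 CPM in late ICMs. The log2 fold change was -1.41 ± 0.39 at the first step (adjusted p = 0.00187) and -2.61 ± 0.63 at the second (adjusted p = 6.46e-04). The first step was not called in Oct4-KO (-0.78 ± 0.40, adjusted p = 0.105) or Oct4 MWT embryos (-0.51 ± 0.44, adjusted p = 0.353), and the second was called in Oct4-KO embryos (-2.45 ± 0.60, adjusted p = 6.43e-04). The 5 Oct4 MWT early ICMs held 3.34, 11.4, 14.3, 15.6 and 19.4 CPM and the MWT late ICMs 0 to 3.31 CPM, so the latter groups did not overlap (-3.16 ± 0.62, adjusted p = 2.98e-05). In Sox2 Ctrl embryos Lin28b had already fallen to its low level at the early ICM, with 17.9, 25.5 and 55.1 CPM in morulae, 0, 1.02 and 11.4 CPM in early ICMs and 0, 2.72 and 5.42 CPM in late ICMs. Morulae and early ICMs did not overlap (-3.73 ± 0.47, adjusted p = 4.76e-11), and no change was called afterwards (0.23 ± 0.63, adjusted p = 0.884). Sox2-KO embryos followed the Sox2 Ctrl embryos (-3.64 ± 0.47 and 0.41 ± 0.63).

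**Figure D3:**
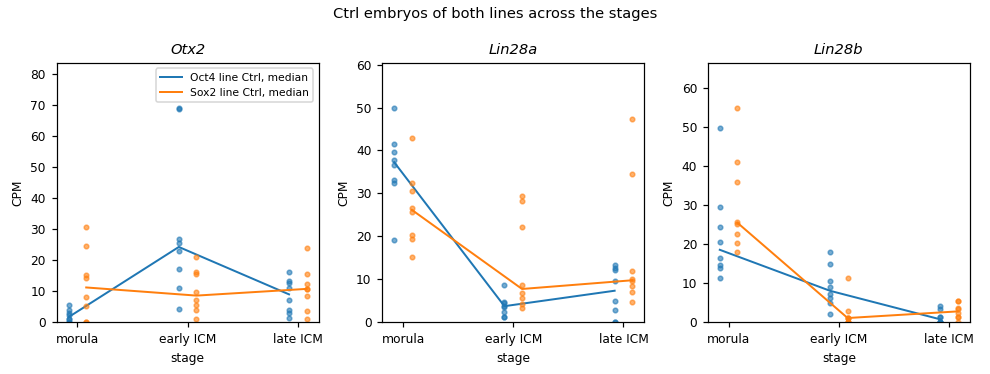
CPM (vertical axis) of Otx2, Lin28a and Lin28b in single Ctrl embryos of the Oct4 and Sox2 lines at the 3 stages (horizontal axis), with points for embryos and lines through group medians. The median of Otx2 was highest in early ICMs in the Oct4 line and in morulae in the Sox2 line, and the median of Lin28b in early ICMs was 8.02 CPM in the Oct4 line and 1.02 CPM in the Sox2 line.

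The timing of Lin28b differed between the lines by the test of the steps themselves. Its step from morula to early ICM was lower in Sox2 Ctrl than in Oct4 Ctrl embryos by -2.32 ± 0.63 (adjusted p = 0.00306), and the step from early to late ICM was higher by 2.84 ± 0.93 (adjusted p = 0.0283). The second of these calls was lost without Sox2 Ctrl late ICM 2-1 (highest adjusted p over 32 embryos left out 0.0579) and in thinned counts (2.37, adjusted p = 0.119). At the early ICM Lin28b was lower in Sox2 Ctrl than in Oct4 Ctrl embryos (-1.90 ± 0.53, adjusted p = 0.00383), opposite to Lin28a. Sox2 Ctrl early ICM 2 held 11 of the 17 Lin28b UMIs of its group, and without it the log2 fold change was -3.09 here, -4.90 for the step from morula to early ICM in Sox2 Ctrl embryos, and -3.48 and 4.05 for the differences between the lines in the first and second step. Sox2-KO early ICM 2 held 10 of 17 UMIs, and without it the step from morula in Sox2-KO embryos was -4.61. All of these remained called. At the late ICM neither paralog was called between the lines, with 1.16 ± 0.47 for Lin28a (adjusted p = 0.138) and 0.94 ± 0.76 for Lin28b (adjusted p = 0.537).

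Neither Lin28 gene was called in any KO comparison. In morulae the log2 fold change of Lin28a was -0.02 ± 0.35 in Oct4-KO and 0.06 ± 0.36 in Sox2-KO embryos, and that of Lin28b was -0.54 ± 0.37 and 0.00 ± 0.34. In early ICMs Lin28a gave -0.34 ± 0.66 and 0.05 ± 0.42, and Lin28b gave 0.09 ± 0.43 and 0.08 ± 0.65. In late ICMs Lin28a gave 0.03 ± 0.55 and 0.55 ± 0.39, and Lin28b gave 0.25 ± 0.86 and 0.26 ± 0.62. The 95% intervals were wide where UMIs were few, as for Lin28b in Oct4-KO late ICMs with 9 UMIs against 7 (-1.44 to 1.94). A log2 change of 1 in either direction lay outside the interval in morulae for Lin28a in Oct4-KO (-0.70 to 0.66) and in both Lin28 genes in Sox2-KO embryos (-0.64 to 0.76 for Lin28a, -0.67 to 0.67 for Lin28b). It also lay outside in early ICMs for Lin28a in Sox2-KO (-0.77 to 0.87) and Lin28b in Oct4-KO embryos (-0.76 to 0.94). In the other 7 comparisons of a Lin28 gene the interval held a change of that size in at least 1 direction.

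**Figure D4:**
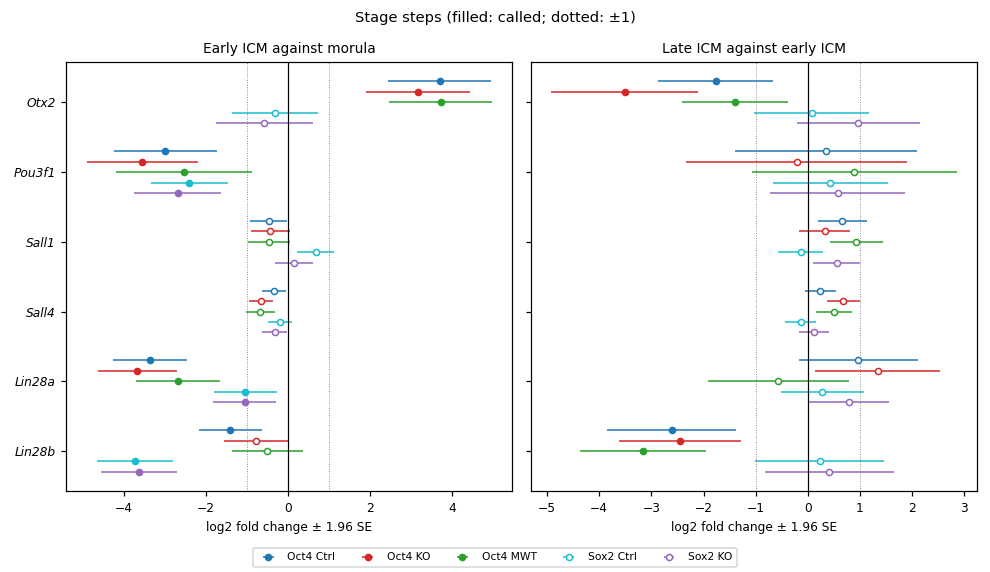
Log2 fold change with its 95% interval (horizontal axis) of 6 genes (vertical axis) from morula to early ICM (left) and from early to late ICM (right) in 5 series of embryos, with filled points for calls and dotted lines at 1 and -1. Otx2 rose by 3.17 to 3.72 at the left in the 3 series of the Oct4 line, Pou3f1 and Lin28a fell in all 5 series, and the larger fall of Lin28b sits on the right in the Oct4 line (-2.61 in Ctrl) and on the left in the Sox2 line (-3.73 in Ctrl).

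Counted over the set, the stage steps called several of the 6 fitted genes. From morula to early ICM these were 4 in Oct4 Ctrl (against 29.0% of all 14053 genes), 3 in Oct4-KO (26.3%), 3 in Sox2 Ctrl (31.9%), 3 in Sox2-KO (32.5%) and 3 in Oct4 MWT embryos (27.6% of 13923 genes). From early to late ICM they were 2 in Oct4 Ctrl (15.6%), 2 in Oct4-KO (15.9%) and 2 in Oct4 MWT embryos (13.2%), Otx2 and Lin28b each time, and 0 in Sox2 Ctrl (2.90%) and Sox2-KO embryos (1.07%). Without the fold minimum, 4 genes passed in the MWT early to late step. Between the Ctrl embryos of the lines 2 genes were called in morulae (6.98% of all genes), 3 in early ICMs (9.94%) and 0 in late ICMs (2.63%). In the comparisons without a call, DESeq2 and limma on rlog values also gave 0. At an unadjusted p under 0.05, edgeR passed 0 in Sox2 Ctrl and 1 in Sox2-KO embryos (Sall1) from early to late ICM and 2 between the lines' late ICMs (Pou3f1 and Lin28a). The differences between the lines in the stage steps were called for 4 genes at the first step (16.6%) and 1 at the second (6.52%).

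In the KO comparisons 1 of the 6 fitted genes was called in Oct4-KO late ICMs (against 18.1% of all genes), and 0 in Oct4-KO morulae (0.804%), Oct4-KO early ICMs (10.9%), Sox2-KO morulae (0.00712%), Sox2-KO early ICMs (3.26%) and Sox2-KO late ICMs (6.97%). DESeq2 gave the same 6 counts, and limma on rlog values gave 0 in all 6 comparisons. At an unadjusted p under 0.05, the edgeR fit passed 1 gene in Oct4-KO early ICMs (Sall4), 1 in Sox2-KO early ICMs (Sall1) and 0 in the other 3 comparisons without a call. A share of 1 in 6 is close to that of all genes in Oct4-KO late ICMs. Differences between the knockouts called 0 of 6 in early ICMs (5.52%) and in late ICMs (6.33%), and differences between late and early ICMs called 0 of 6 in the Oct4 line (3.11%) and in the Sox2 line (0.0427%). MWT and Ctrl embryos of the same line and stage differed in 0 of 6 genes in each of 4 comparisons, in which 0.0646% (Oct4 morulae), 0.373% (Oct4 early ICMs), 0.804% (Oct4 late ICMs) and 2.58% (Sox2 early ICMs) of all genes were called. DESeq2 also called 0 in each of these comparisons of knockouts, stages and MWT embryos. At an unadjusted p under 0.05, edgeR passed 1 gene each in the difference between knockouts in late ICMs (Otx2) and in those between late and early ICMs of the Oct4 line (Sall4) and of the Sox2 line (Sall1), and 0 in the others. The lowest adjusted p of the MWT comparisons was that of Otx2 in Sox2 early ICMs (0.94 ± 0.52, edgeR adjusted p = 0.301), followed by Lin28b in the same embryos (1.02 ± 0.58, adjusted p = 0.308).

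**Figure D5:**
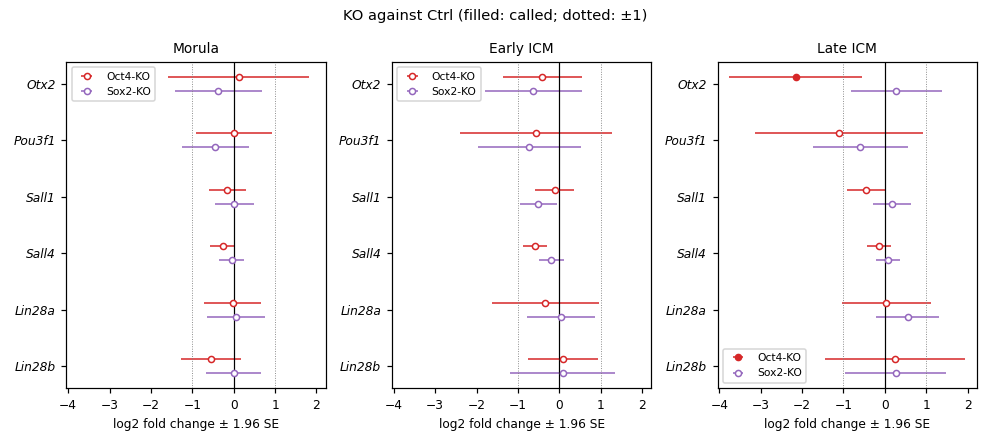
Log2 fold change of KO against Ctrl embryos with its 95% interval (horizontal axis) of 6 genes (vertical axis) in morulae, early ICMs and late ICMs, with a filled point for a call and dotted lines at 1 and -1. Otx2 in Oct4-KO late ICMs, at -2.15, is the only filled point, and the intervals of Sall4 in Oct4-KO and of Sall1 in Sox2-KO early ICMs lie below 0.

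Other genes of the formative and postimplantation epiblast were followed from a list of 19. Of these, 9 were tested, and 6 were called in Oct4-KO late ICMs (against 18.1% of all genes), with a median log2 fold change of -0.18 against 0.00 over all genes. Zic5, Foxd3, Etv5 and Tdgf1 fell, and Grhl2 and Tcf15 rose. Foxd3, a forkhead factor of the epiblast, went from 219 to 6.34 CPM (-4.96 ± 0.62), and Tdgf1, the NODAL coreceptor, from 335 to 6.03 CPM (-5.71 ± 0.40). Etv5, an ETS factor downstream of FGF signalling, went from 225 to 11.3 CPM (-4.22 ± 0.30), and the zinc finger factor Zic5 from 20.2 to 0.465 CPM (-4.92 ± 0.79). Grhl2, a Grainyhead factor also made in trophectoderm, rose by 1.03 ± 0.22 and Tcf15 by 2.16 ± 0.35, while trophectoderm marker sums were higher in the same embryos.

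In Oct4-KO early ICMs 5 of the 9 were called (against 10.9% of all genes) with a median of -0.25: Zic5 (-2.87 ± 0.80), Etv5 (-2.39 ± 0.28) and Tdgf1 (-4.11 ± 0.34) fell, and Grhl2 (1.33 ± 0.24) and Tcf15 (1.53 ± 0.36) rose. Sox2-KO late ICMs had 5 calls (against 6.97% of all genes) with a median of -0.90, namely Zic5, Foxd3, Etv5 and Tdgf1, which fell by 4.34, 2.18, 1.26 and 1.44 on the log2 scale, and the de novo DNA methyltransferase Dnmt3a, which rose from 48.3 to 121 CPM (1.43 ± 0.26). Sox2-KO early ICMs had 2 calls (against 3.26%) with a median of -0.12, and Zic5 (-2.95 ± 0.67) and Tdgf1 (-1.19 ± 0.28) fell. Markers of other cells moved in the same embryos: of 11 trophectoderm markers Cdx2, Gata3 and Eomes were called higher in early and late ICMs, Krt8 higher in early ICMs, Tfap2c lower in early and Gata2 lower in late ICMs, with list medians of 1.56 in early and 0.27 in late ICMs. The trophectoderm markers summed to 480 to 2020 CPM in Sox2-KO against 134 to 597 CPM in Ctrl early ICMs, and to 589 to 1770 against 230 to 2900 CPM in late ICMs. The epiblast markers Sox2, Klf2, Prdm14 and Gdf3 were lower at both stages, and the 12 markers summed to 1840 to 2980 CPM in Sox2-KO against 2730 to 4310 CPM in Ctrl late ICMs. Of 9 tested primitive endoderm markers, Dab2 was called higher in early ICMs (from 30.9 in Ctrl to 102 CPM, 1.79 ± 0.37). Lama1 was called lower in late ICMs (from 127 to 34.9 CPM, -1.73 ± 0.56), and the list medians were -0.04 and 0.03. The part of all these markers in the falls of Zic5, Foxd3, Etv5 and Tdgf1 was not tested. No gene of the list was called in morulae of either knockout. From early to late ICM 6 of the 9 rose in Oct4 Ctrl embryos (against 15.6% of all genes called), where Otx2 and Lin28b fell: Dnmt3b, Dnmt3l, Zic5, Foxd3, Grhl2 and Etv5, with Foxd3 rising from 14 to 219 CPM (3.94 ± 0.54, adjusted p = 6.35e-09). In Oct4-KO embryos Dnmt3b (1.42 ± 0.29) and Dnmt3l (1.64 ± 0.33) rose and Tdgf1 fell (-1.36 ± 0.50) at this step (15.9% of all genes), in Sox2 Ctrl embryos Foxd3 alone rose (1.47 ± 0.46, 2.90%), and in Sox2-KO embryos none of the 9 was called by edgeR (1.07%).

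The pathway between LIN28 and let-7 was represented by 14 tested genes, for the uridylyltransferases that LIN28A recruits, the exonuclease DIS3L2, the miRNA processing machinery and targets of let-7. The let-7 miRNAs themselves were not measured, because libraries were made from polyadenylated RNA. One gene of the 14, Trim71, was called in Oct4-KO late ICMs (against 18.1% of all genes), and none in the other 5 KO comparisons, in which 0.00712% to 10.9% of all genes were called. Trim71 encodes a ubiquitin ligase repressed by let-7 and went from 72.9 CPM in Ctrl to 21.7 CPM in Oct4-KO late ICMs (-1.63 ± 0.23, adjusted p = 1.38e-08). The list median in that comparison was -0.41. From morula to early ICM 3 of the 14 were called in Oct4 Ctrl (against 29.0% of all genes), 4 in Oct4-KO (26.3%), 5 in Sox2 Ctrl (31.9%) and 3 in Sox2-KO embryos (32.5%), shares close to those of all genes. Dis3l2 rose from morula to early ICM in Oct4 Ctrl (from 0.637 to 3.12 CPM, adjusted p = 0.00777), Oct4-KO (2.38 ± 0.56), Sox2 Ctrl (2.19 ± 0.50) and Sox2-KO embryos (3.43 ± 0.54). Igf2bp3, an mRNA-binding protein and let-7 target, rose in Oct4 Ctrl (1.05 ± 0.25), Sox2 Ctrl (1.10 ± 0.24) and Sox2-KO embryos (1.36 ± 0.24). Tut4, a uridylyltransferase, rose in Sox2 Ctrl (from 23.4 to 73.3 CPM, 1.58 ± 0.20) and Sox2-KO embryos (1.84 ± 0.20), and Dicer1 fell in Sox2 Ctrl embryos (-1.13 ± 0.20). Trim71 fell in Oct4-KO (-1.07 ± 0.21) and rose in Sox2 Ctrl embryos (1.02 ± 0.20), Xpo5, the exporter of miRNA precursors, fell in Oct4-KO embryos (-1.11 ± 0.16), and Igf2bp1 in Oct4 Ctrl (1.07 ± 0.17) and Arid3a in Oct4-KO embryos (2.16 ± 0.62) rose.

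The NuRD complex, the partner of SALL factors, was listed with 14 subunits, all tested. In Oct4-KO late ICMs 3 of the 14 were called, a share close to the 18.1% of all genes, with a list median of 0.02: the deacetylase gene Hdac1 fell from 353 to 140 CPM (-1.22 ± 0.13), and Mta3 (1.5 ± 0.16) and the histone chaperone gene Rbbp7 (1.08 ± 0.20) rose. No subunit was called in the other 5 KO comparisons, in which 0.804% (Oct4-KO morulae), 10.9% (Oct4-KO early ICMs), 0.00712% (Sox2-KO morulae), 3.26% (Sox2-KO early ICMs) and 6.97% (Sox2-KO late ICMs) of all genes were called.

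Closeness of pattern was described over the 16 group means of log2 CPM, which share libraries and depth, among protein-coding genes with a mean level of 5 CPM or more. For Lin28b the closest were Rpap3 (r = 0.98), Zfp622 (r = 0.97) and Taf1a (r = 0.97). For Lin28a they were Mrpl27 (r = 0.95), Plcd1 (r = 0.94) and Polr2j (r = 0.93), for Pou3f1 Tmem267 (r = 0.95), Prelid3b (r = 0.94) and Pold3 (r = 0.93), and for Otx2 Anapc4 (r = 0.93), Mdm4 (r = 0.90) and Eprs (r = 0.90). Sall1 was closest to Snapc2 (r = 0.91), Sbf1 (r = 0.89) and Pigs (r = 0.88), and Sall4 to Thoc6 (r = 0.87), Ccdc92 (r = 0.86) and Bag1 (r = 0.86). Among the members, Pou3f1 and Lin28a were the closest pair (r = 0.85), followed by Pou3f1 and Lin28b (r = 0.72), while Lin28a and Lin28b had r = 0.58 and Otx2 and Lin28a r = -0.63.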

How the data were processed

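Polyadenylated RNA of single embryos or ICMs was amplified with UMI primers and sequenced from 3′ ends. The deposited table holds UMI counts per gene, which the authors made with UMI-tools, Cutadapt, TopHat2 (mm10), featureCounts and TRUmiCount, without normalization. The authors also deposited rlog values (log2 scale, DESeq2), used here only as an alternative. Versions and the strand setting are not given in the sources used here.

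Groups were taken from the sample labels. A gene was tested if a share of 0.5 or more of the embryos of any stage had a UMI of it. The quasi-likelihood test of edgeR 4.0.16 (R 4.3.3) was run with TMM scaling and a mean per group, on 96 Ctrl and KO embryos for KO, stage and line contrasts and on all embryos where MWT entered. The SE is the log2 fold change divided by the square root of F. Adjusted p-values are edgeR's with Benjamini-Hochberg adjustment over all genes tested, unless DESeq2 1.42.0 or limma 3.58.1 is named. The test was also run on simulated counts with known changes, and its error rate there is not given here. The members, context lists and markers were chosen with earlier results of these data known. All members, the list genes called in a KO comparison and the 3 closest patterns with a mean of at least 5 CPM are named, and list genes of the stage steps were picked after their values were seen. No sample column was left unused. A gene of the context lists is not reported here and was left out of their counts and medians.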

Additional observations from a re-analysis of the deposited data

Results flagged for a closer look

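Among 68 groups of 4 to 10 embryos in which a gene had at least 40 UMIs in all, a single embryo stood apart from the rest of its group (Dixon's test on log2(CPM + 1)) in 5, where chance gives about 1 in 20. Sall1 had 16.0 CPM in Sox2-KO morula 2 against 23.1 to 31.1 CPM in the others, 11.8 CPM in Sox2-KO early ICM 11 against 22.9 to 38.7 CPM, and 9.90 CPM in Sox2-KO late ICM 2-10 against 28.2 to 66.2 CPM. Lin28a had 19.1 CPM in Oct4 Ctrl morula 1 against 32.5 to 50.0 CPM, and 2.47 CPM in Sox2 MWT early ICM 8 against 10.2 to 15.5 CPM. These 5 embryos carried 17, 11, 6, 18 and 2 UMIs of the gene. On the CPM scale, tried after the values were seen, 6 embryos stood apart: the last of these and 5 high ones, Otx2 in Oct4 MWT late ICM 14 (32.8 CPM against at most 18.2 CPM), Fgf5 in Oct4-KO morula 12 (26.8 against 10.6 CPM), Sall1 in Oct4-KO early ICM 10 (56.2 against 32.8 CPM) and in Oct4 Ctrl late ICM 2-1 (72.3 against 46.9 CPM), and Lin28a in Sox2-KO early ICM 8 (33.2 against 15.5 CPM).

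The step from morula to early ICM differed between Ctrl embryos of the Sox2 and Oct4 lines, as Sox2 minus Oct4 on the log2 scale, by -4.02 for Otx2, 1.14 for Sall1, 2.32 for Lin28a and -2.32 for Lin28b. The step from early to late ICM differed by 2.84 for Lin28b. The comparison was chosen after the values were seen, and line, parents and handling cannot be told apart.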

How the results depend on the processing

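The number of called genes moved under these alternatives. In Oct4-KO early ICMs 1 gene (Sall4) was called without a fold minimum. In Oct4-KO late ICMs the call of Otx2 went to 0 with limma on rlog values (-0.86, adjusted p = 0.0616) and within label set 1 or 2 alone, and leaving out single embryos gave 0 to 1. In Sox2-KO early ICMs 1 gene was called against MWT embryos. In the step from early to late ICM, limma on rlog values called 1 gene in Oct4 Ctrl and 1 in Oct4-KO embryos, no fold minimum gave 3 in each, and in Oct4-KO embryos DESeq2 gave 3 and leaving out single embryos 2 to 3. From morula to early ICM, no fold minimum gave 4 in Oct4-KO, Sox2 Ctrl and Oct4 MWT embryos, and no detection filter gave 5 in Oct4 Ctrl and 4 in Oct4-KO and Oct4 MWT embryos. At that step 2 were called with limma in both Sox2 series, with library totals alone in Sox2 Ctrl and with DESeq2 or RLE scaling in Sox2-KO embryos, and thinned counts gave 4 in Sox2 Ctrl. Leaving out single embryos there gave 2 to 3 in each Sox2 series and 3 to 4 in Oct4-KO embryos. Between Ctrl early ICMs of the lines limma called 2 genes, no fold minimum gave 4 and leaving out single embryos gave 2 to 4. The difference between the knockouts in late ICMs had 1 call in thinned counts. Between Ctrl morulae of the lines 1 gene was called with DESeq2, RLE scaling, rlog values, thinned counts or all embryos in the fit, and between late ICMs leaving out single embryos gave 0 to 1 (1 without Oct4 Ctrl late ICM 1-6). The difference of the lines in the late step had 0 calls in thinned counts and 0 to 1 on leaving out single embryos. From early to late ICM of Oct4 MWT embryos, DESeq2 called 1 gene, no fold minimum gave 4 and leaving out single embryos gave 1 to 3. No called difference of a member changed direction under the alternatives run, while differences without a call did, such as Otx2 in Oct4-KO early ICMs (-0.87 to 0.38) and Lin28b (-3.49 to 3.93), Sall1 (-0.87 to 0.28) and Sall4 (-0.68 to 0.14) in Oct4-KO late ICMs.

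Ctrl and KO embryos share some numbers, but nothing in the labels says that they mark a litter or day. Deviations of same-numbered embryos correlated with r from -0.09 to 0.26, and the highest r by line and stage was 0.15 to 0.26. Over all pairs of a Ctrl and a KO embryo of a line and stage, the median r was between -0.02 and 0.02. The fit with the number as a replicate block called 0 genes in Oct4 late ICMs, as did the same embryos without the block. This fit held 28 embryos, with 1 pair of Oct4 late ICMs. With 1 Ctrl and 1 KO embryo, neither result can show whether the block or the smaller number of embryos removed the call of Otx2.

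At 2 to 26 UMIs per group, Pou3f1 in ICMs, and Fgf5 outside Oct4-line morulae, could not be compared finely.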

Other observations

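Relatives of the members gave further values. Of 12 listed, 6 were tested, and 4 were called in Oct4-KO early ICMs (against 10.9% of all genes, list median -1.16 against 0.01 over all genes), 3 in Oct4-KO late ICMs (18.1%), 1 each in Sox2-KO early (3.26%) and late ICMs (6.97%) and 0 in morulae of the Oct4 (0.804%) and Sox2 knockouts (0.00712%). Fgf4, the fibroblast growth factor that the epiblast sends to the primitive endoderm, went from 321 to 14.7 CPM in Oct4-KO late ICMs (-4.35 ± 0.41, edgeR adjusted p = 1.71e-15) and from 397 to 32.4 CPM in Sox2-KO late ICMs (-3.50 ± 0.36, adjusted p = 1.17e-12). The POU factor gene Pou2f3 had 0.152 CPM in Oct4-KO early ICMs against 6.17 CPM in Ctrl (-4.40 ± 0.74), and Pou2f1 had 31.3 against 82.3 CPM (-1.32 ± 0.21). Pou3f3, a close relative of Pou3f1, was higher in Oct4-KO late ICMs (3.32 against 0.172 CPM, 3.48 ± 1.02). The medians of the trophectoderm marker sums were 1150 against 579 CPM in Oct4-KO and Ctrl early ICMs, 2890 against 693 CPM in late ICMs and 910 against 545 CPM in Sox2-KO and Ctrl late ICMs, and their part in these differences was not tested.

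Of the 14 NuRD subunits, 5 were called from morula to early ICM in each of Oct4 Ctrl (against 29.0% of all genes), Oct4-KO (26.3%), Sox2 Ctrl (31.9%) and Sox2-KO embryos (32.5%), shares close to those of all genes. Mta1 rose from morula to early ICM in Oct4 Ctrl (2.10 ± 0.25), Oct4-KO (1.97 ± 0.27), Sox2 Ctrl (2.64 ± 0.22) and Sox2-KO embryos (2.29 ± 0.23), and Mta3 fell in the same 4 series (-1.55 ± 0.16, -1.11 ± 0.16, -1.56 ± 0.16 and -1.51 ± 0.16). Cdk2ap1 fell in all 4, from 327 to 53.6 CPM in Oct4 Ctrl embryos (-2.72 ± 0.20). Mbd3 fell in Oct4 Ctrl (-1.34 ± 0.11) and Oct4-KO embryos (-1.65 ± 0.11). These genes were picked after their values were seen.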
